A study of Mus musculus with 20 samples.

Results

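The genes described here are 10 regulators of haematopoietic stem and progenitor cells, Kit, Cd34, Flt3, Meis1, Hoxa9, Mecom, Hlf, Gata2, Cdk6 and Myb. They were chosen by name, with earlier results of these data known. All 10 were found through their symbols among the 37620 genes of the count table and were measured. RNA came from bulk bone marrow of 20 recipient mice, 5 in each of 4 groups. All mice were (C57BL/6 × 129S4Sv/Jae)F1 recipients aged 6 to 12 weeks, lethally irradiated with 1100 rads and engrafted for at least 6 weeks with marrow pooled from several transgenic donors aged 8 to 12 weeks. In every donor the reverse tetracycline transactivator rtTA drove a doxycycline-inducible transgene, and every recipient ate doxycycline chow (625 ppm) for 7 days. The transgene was U2AF1(S34F), a mutant form of the splicing factor U2AF1 found in myeloid malignancies, or U2AF1(WT), its normal form. For the last 5 of those days the mice were infused with sudemycin D6 (50 mg per kg per day), a small molecule that targets the splicing protein SF3B1, or with the vehicle 2-hydroxypropyl-β-cyclodextrin. The mice that share a transgene also share a small pool of donors, so p-values measure the spread between recipients.

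Haematopoietic stem cells sit at the top of blood formation, are rare in marrow, and give rise to progenitors that multiply before they mature. KIT and FLT3 are receptor tyrosine kinases on these cells, which respond to stem cell factor and FLT3 ligand, and CD34 is a surface sialomucin used to sort progenitors. HOXA9 and MEIS1 bind DNA together and fall silent as cells mature, MECOM and HLF are transcription factors tied to the stem cell state, GATA2 also serves mast cells and basophils, and MYB and the kinase CDK6 drive progenitor proliferation. U2AF1 contacts the AG at the end of introns, and the S34F form is known to use sites with T before the AG less readily than sites with C.

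Isoforms of 7 of the genes could be followed in the junction reads, and the splice sites of 3 of them are given first because their isoform shares are described further on. Each is written 5′ to 3′ on the strand of the gene, from the mouse genome build mm9. For Cd34 and Myb, the first 20 bases are the end of the intron and the last 3 are the start of the exon, and capitals mark the last 3 bases of the intron. For Kit, capitals mark the 12 bases between its alternative 5′ splice sites, which are exonic in the longer isoform and intronic in the shorter one.

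Cd34 upstream 3′ splice site, chr1:196785954-196785976, plus strand: ctctgtcctttctcctcTAGgag
Cd34 downstream 3′ splice site, chr1:196786110-196786132, plus strand: tttatttctatactgtcCAGggt
Myb 3′ splice site of the alternative exon, chr10:20865129-20865151, minus strand: tgcctcccacgttgtttCAGgat
Myb 3′ splice site of the exon after it, chr10:20862896-20862918, minus strand: tttctttcttccatgttTAGttc
Kit alternative 5′ splice sites, chr5:76035154-76035195, plus strand: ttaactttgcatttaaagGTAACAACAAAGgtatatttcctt

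Total gene counts ran from 41145892 to 62138138 per mouse. U2af1 itself was higher in U2AF1(S34F) than in U2AF1(WT) mice under vehicle by 0.49 on the log2 scale (standard error 0.068, FDR=0.000294, edgeR's quasi-likelihood test, adjusted by Benjamini-Hochberg as throughout), a count that cannot separate transgene from endogenous transcripts. Each U2AF1(WT) mouse had 39145 to 78640 Xist counts and each U2AF1(S34F) mouse 1 to 8. Summed counts of Y-linked genes were 0 to 4 in U2AF1(WT) mice and 10270 to 15034 in U2AF1(S34F) mice. The transgene and the pattern of sex-linked transcripts therefore cannot be told apart in any comparison between transgenes. Levels are given as CPM, counts scaled to a common library size with TMM factors over all mice. Each comparison was fitted on all genes of its own 10 mice, and a gene was called at FDR<10%.

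Under sudemycin D6 the stem and progenitor genes were mostly lower. In U2AF1(WT) mice, Flt3, Meis1 and Gata2 fell and no member rose, so that 3 of 10 were lower against 1.89% of the 14763 genes tested. In U2AF1(S34F) mice, Kit, Cd34, Flt3, Meis1, Mecom and Myb fell and none rose, 6 of 10 against 5.85% of 14714 genes. Because the genes were chosen with earlier results of these data known, these counts are a description. The difference was below 0 for 9 of the 10 genes with U2AF1(WT) and for 10 of 10 with U2AF1(S34F), whether called or not. The median log2 difference of the 10 genes was -0.43 with U2AF1(WT) and -0.45 with U2AF1(S34F), beside 0.0041 and -0.0092 for all genes tested. The 6 calls in U2AF1(S34F) mice became 2 without vehicle mouse 1 or without sudemycin mouse 2, 3 without sudemycin mouse 12, and 1 (Flt3) in one model of all 20 mice, with every difference still below 0. In bulk marrow, fewer cells of a type and less RNA per cell cannot be told apart.

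The transgene gave a different picture. Under vehicle, Cd34, Hoxa9 and Myb were higher and Gata2 was lower in U2AF1(S34F) than in U2AF1(WT) mice, 4 of 10 genes in a comparison that called 39.5% of 14817 genes, so the share of members called was near that background. Under sudemycin D6 edgeR called 0 of the 10 genes between transgenes, where 36.8% of 14677 genes were called. No member had an unadjusted p below 0.05 in that comparison, and DESeq2 also called 0. Leaving out 1 mouse gave 1 call in place of 0: Gata2 without U2AF1(S34F) mouse 2 or U2AF1(WT) mouse 9, Myb without U2AF1(S34F) mouse 6, Cd34 without U2AF1(WT) mouse 6, and Flt3 without U2AF1(WT) mouse 10. Sudemycin-treated U2AF1(S34F) mice set against vehicle-treated U2AF1(WT) mice had 5 of 10 genes lower (Kit, Flt3, Meis1, Mecom and Gata2) and none higher. Of 14761 genes 50.2% were called in either direction, so the share of members called was near that background, and 25.1% were lower. The count of members was 3 without U2AF1(WT) mouse 1, U2AF1(S34F) mouse 2 or U2AF1(S34F) mouse 12. These comparisons share mice: the vehicle-treated groups enter both a drug comparison and the comparison between transgenes, so a vehicle mouse that is high moves both.

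Markers of other cells also differed between transgenes under vehicle. Of 8 neutrophil markers 4 were higher in U2AF1(S34F) mice and none lower, led by the calprotectin gene S100a8 (1.26, standard error 0.20, FDR=0.000735, edgeR), and their summed level was 84700 to 139000 CPM against 62200 to 71200 with U2AF1(WT), without overlap. Of 12 cell cycle genes 5 were higher and none lower, led by the topoisomerase Top2a (0.55, standard error 0.10, FDR=0.00186, edgeR), with sums of 3970 to 4690 and 2560 to 4270 CPM. Of 8 granulocyte-monocyte progenitor markers 3 were higher (Prtn3, Ctsg and Ms4a3) and Csf1r, the receptor for macrophage colony-stimulating factor, was lower. Of all genes tested, 19.7% were higher in this comparison, and the part of these cells in the members' differences between transgenes was not tested.

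Whether the drug difference itself differed between the transgenes was tested with an interaction term on all 20 mice. edgeR called 0 of the 10 genes (0.013% of 15392 genes were called), no member had an unadjusted p below 0.05, and DESeq2 called 0 members too. A gene called in 1 transgene and not in the other is therefore not shown to respond differently. The interaction estimates had standard errors of 0.13 for Myb to 0.39 for Gata2 on the log2 scale, which limits that test.

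**Figure D1:**
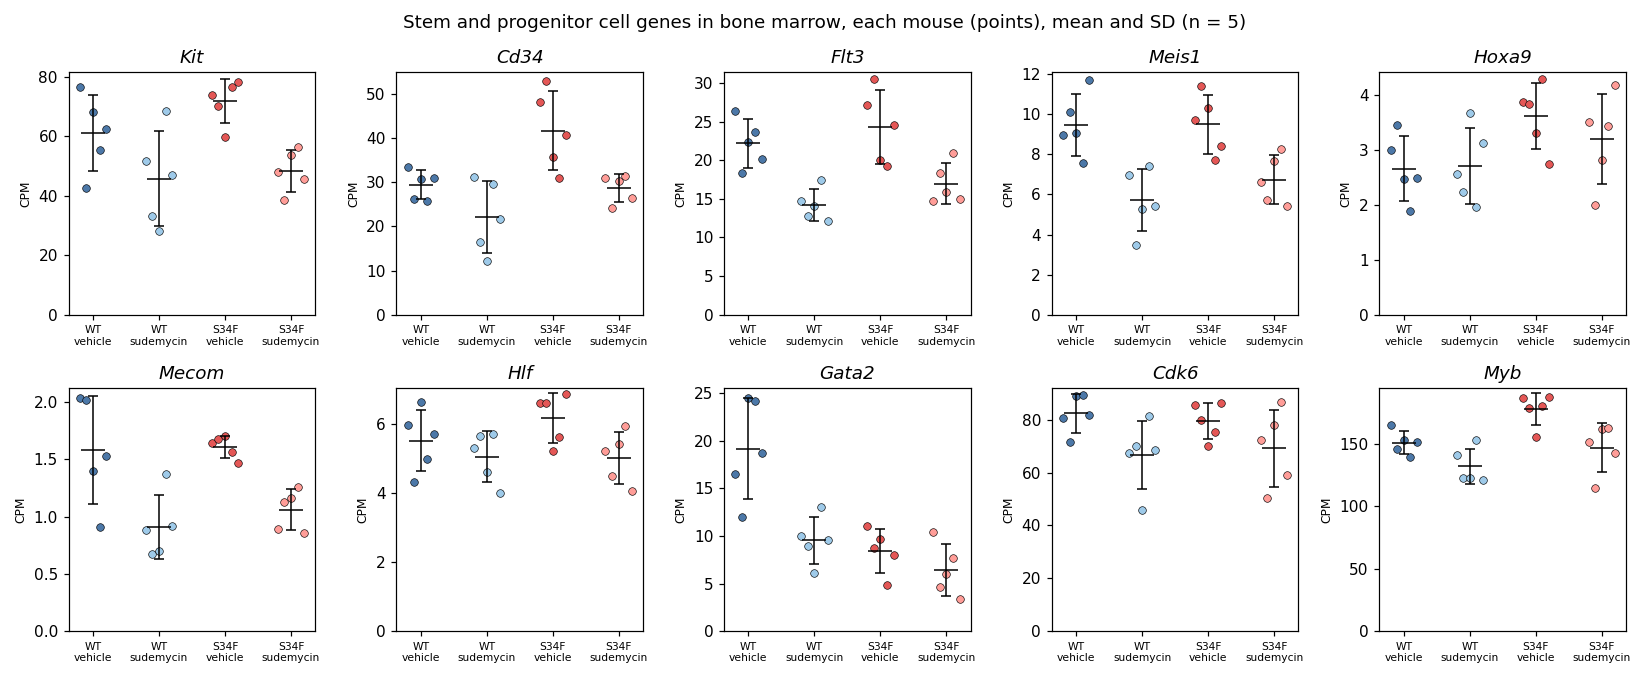
Expression of the 10 genes in CPM (linear axes that start at 0), with 1 point for each mouse, a horizontal bar for the group mean and error bars of 1 SD (n = 5). With U2AF1(WT), Flt3 lies between 12.1 and 17.4 CPM under sudemycin and between 18.3 and 26.4 under vehicle, while Gata2 is highest in vehicle-treated U2AF1(WT) mice.

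Kit, the receptor for stem cell factor (ENSMUSG00000005672, chr5:75970941-76052747, plus strand), was at 9.73 RPKM over all mice, a level per exon length. Vehicle-treated U2AF1(S34F) mice 1, 3, 5, 7 and 11 had 74.0, 70.2, 59.8, 76.6 and 78.2 CPM of Kit, and sudemycin-treated U2AF1(S34F) mice 2, 6, 9, 10 and 12 had 47.9, 38.5, 53.7, 56.4 and 45.6. The lowest vehicle mouse was above the highest sudemycin mouse, so these groups did not overlap, as for 7.8% of genes in this comparison. The log2 fold change was -0.57 (standard error 0.10, FDR=0.00781, edgeR). The vehicle-treated U2AF1(WT) mice 1 to 5 had 76.4, 42.6, 68.3, 55.5 and 62.3 CPM of Kit, and sudemycin-treated mice 6, 8, 9, 10 and 12 had 51.6, 33.3, 28.3, 68.4 and 47.1. Sudemycin mice 6, 10 and 12 lay inside the range of the vehicle group and mice 8 and 9 below it, and the log2 difference of -0.43 (standard error 0.23, FDR=0.45, edgeR) did not pass. Between transgenes under vehicle the log2 difference of Kit was 0.22 (standard error 0.13, FDR=0.226, edgeR) and was not called. Kit was called there when U2AF1(WT) mouse 1 was left out (0.32, FDR=0.0923, edgeR).

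Flt3, the receptor for FLT3 ligand (ENSMUSG00000042817, chr5:148142317-148212065, minus strand), was called under the drug with both transgenes and was at 3.15 RPKM over all mice. In U2AF1(WT) mice, Flt3 was 26.4, 18.3, 22.4, 23.7 and 20.1 CPM in vehicle mice 1 to 5, and 14.7, 12.8, 14.1, 17.4 and 12.1 CPM in sudemycin mice 6, 8, 9, 10 and 12. The groups did not overlap, as for 4.15% of the genes tested, and the log2 fold change was -0.66 (standard error 0.13, FDR=0.0203, edgeR). In U2AF1(S34F) mice, Flt3 was 27.1, 30.5, 20, 19.3 and 24.5 CPM in vehicle mice 1, 3, 5, 7 and 11, and 14.7, 18.4, 15.9, 20.9 and 15 CPM in sudemycin mice 2, 6, 9, 10 and 12. Mouse 10 of the sudemycin group lay above vehicle mice 5 and 7, and the log2 fold change was -0.52 (standard error 0.14, FDR=0.0456, edgeR). This call was lost without vehicle mouse 1 (FDR=0.105) or sudemycin mouse 2 (FDR=0.109).

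Cd34, the surface sialomucin (ENSMUSG00000016494, chr1:196765015-196787486, plus strand, 11.6 RPKM), was highest in vehicle-treated U2AF1(S34F) marrow. Mice 1, 3, 5, 7 and 11 of that group had 48.1, 52.9, 35.6, 31.0 and 40.6 CPM of Cd34, and vehicle-treated U2AF1(WT) mice 1 to 5 had 33.5, 26.2, 30.6, 25.8 and 30.9. Only mouse 7 of the U2AF1(S34F) group fell inside the U2AF1(WT) range, and the log2 difference was 0.49 (standard error 0.13, FDR=0.0125, edgeR). With sudemycin D6, the U2AF1(S34F) mice 2, 6, 9, 10 and 12 had 30.9, 24.1, 30.3, 31.4 and 26.4 CPM of Cd34, a log2 fold change of -0.54 from vehicle (standard error 0.13, FDR=0.0362, edgeR). All but mouse 10 were below every vehicle-treated U2AF1(S34F) mouse. Sudemycin-treated U2AF1(WT) mice 6, 8, 9, 10 and 12 spread from low to the vehicle range, with 31.1, 16.4, 12.2, 29.6 and 21.6 CPM, and their log2 difference of -0.42 (standard error 0.22) was not called (FDR=0.448, edgeR).

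Meis1, a homeobox partner of HOXA9 (ENSMUSG00000020160, chr11:18780433-18918961, minus strand, 1.06 RPKM), was lower under sudemycin D6 with either transgene. In U2AF1(WT) mice, Meis1 was 8.95, 10.1, 9.04, 7.57 and 11.7 CPM in vehicle mice 1 to 5, and 6.98, 3.50, 5.27, 7.42 and 5.42 CPM in sudemycin mice 6, 8, 9, 10 and 12. The groups met without overlapping, as for 4.15% of the genes tested, and the log2 fold change was -0.74 (standard error 0.20, FDR=0.0821, edgeR). In U2AF1(S34F) mice, Meis1 was 9.72, 11.4, 10.3, 7.73 and 8.40 CPM in vehicle mice 1, 3, 5, 7 and 11, and 6.63, 5.70, 7.67, 8.25 and 5.44 CPM in sudemycin mice 2, 6, 9, 10 and 12. Mouse 10 passed vehicle mouse 7, and the log2 fold change was -0.50 (standard error 0.14, FDR=0.0564, edgeR). Both calls were near the threshold. In U2AF1(WT) mice it was lost without vehicle mouse 1, 2, 3 or 5 or sudemycin mouse 8, 9 or 12 (FDR 0.105 to 0.229), and in U2AF1(S34F) mice without vehicle mouse 1 or 3 or sudemycin mouse 2, 6 or 12 (FDR 0.109 to 0.118), with edgeR in each case and a log2 difference that stayed between -0.76 and -0.43.

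Mecom, a zinc finger transcription factor needed by stem cells (ENSMUSG00000027684, chr3:29850221-30446930, minus strand), was the least abundant member per exon length, at 0.122 RPKM. In U2AF1(S34F) mice, Mecom was 1.64, 1.68, 1.70, 1.56 and 1.47 CPM in vehicle mice 1, 3, 5, 7 and 11, and 0.888, 1.13, 1.16, 1.26 and 0.853 CPM in sudemycin mice 2, 6, 9, 10 and 12. Every sudemycin mouse was below every vehicle mouse, and groups did not overlap for 7.8% of genes in this comparison. The log2 fold change of Mecom was -0.61 (standard error 0.17, FDR=0.0528, edgeR). The call was lost without vehicle mouse 1 (FDR=0.103), sudemycin mouse 2 (FDR=0.125) or sudemycin mouse 12 (FDR=0.10). In U2AF1(WT) mice, Mecom was 2.04, 2.02, 1.40, 0.912 and 1.53 CPM in vehicle mice 1 to 5, and 0.884, 0.671, 0.696, 1.37 and 0.921 CPM in sudemycin mice 6, 8, 9, 10 and 12. Vehicle mouse 4 was as low as the sudemycin group and sudemycin mouse 10 as high as the vehicle group. The log2 difference of -0.81 (standard error 0.29) was not called in U2AF1(WT) mice (FDR=0.223, edgeR), but one model of all 20 mice called it there (-0.79, FDR=0.054) and did not call the difference in U2AF1(S34F) mice (-0.60, FDR=0.171).

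Gata2 (ENSMUSG00000015053, chr6:88143885-88157024, plus strand, 3.25 RPKM), the zinc finger factor of stem cells, mast cells and basophils, differed most between groups of all members. Vehicle-treated U2AF1(WT) mice 1 to 5 had 16.5, 12, 24.5, 24.2 and 18.7 CPM of Gata2, and vehicle-treated U2AF1(S34F) mice 1, 3, 5, 7 and 11 had 11, 8.71, 9.73, 4.81 and 8.02. The groups did not overlap, as for 20.2% of genes in this comparison, and the log2 difference was -1.20 (standard error 0.23, FDR=0.00311, edgeR), a level 2.29 times lower. Sudemycin-treated U2AF1(WT) mice 6, 8, 9, 10 and 12 had 10, 8.91, 6.15, 13.1 and 9.62 CPM of Gata2. Only their mouse 10 exceeded the lowest vehicle mouse, and the log2 fold change was -1.02 (standard error 0.22, FDR=0.0362, edgeR).

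With both the mutant transgene and the drug, Gata2 was 10.4, 4.61, 5.96, 7.69 and 3.35 CPM in mice 2, 6, 9, 10 and 12. All of these were below every vehicle-treated U2AF1(WT) mouse, as for 24.2% of genes whose groups did not overlap in this comparison, a log2 difference of -1.58 (standard error 0.29, FDR=0.0019, edgeR). Against vehicle-treated U2AF1(S34F) mice they overlapped, with a log2 difference of -0.40 (standard error 0.29, FDR=0.45, edgeR). The interaction estimate for Gata2, the drug difference in U2AF1(S34F) minus that in U2AF1(WT) mice, was 0.61 on the log2 scale (standard error 0.39, FDR=0.779, edgeR). Between transgenes under sudemycin D6 the log2 difference of -0.58 was not called (FDR=0.138, edgeR), but it was without U2AF1(S34F) mouse 2 (-0.83, FDR=0.0412) and without U2AF1(WT) mouse 9 (-0.69, FDR=0.0775).

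Markers of mast cells and basophils, which also express Gata2, moved with it in part. Of the 8 markers listed, 7 were tested, and 3 were lower in U2AF1(S34F) mice under vehicle (Prss34, Mcpt8 and Hdc) and 3 under sudemycin D6 in U2AF1(WT) mice (Mcpt8, Fcer1a and Ms4a2), none being higher. Of all genes tested, 19.8% were lower in the comparison between transgenes and 1.89% under the drug in U2AF1(WT) mice. Mcpt8, a basophil protease, fell by 1.25 on the log2 scale under the drug in U2AF1(WT) mice (standard error 0.23, FDR=0.0203, edgeR). Their summed level, most of it the histidine decarboxylase gene Hdc, was 497 to 856 CPM under vehicle and 571 to 723 under the drug with U2AF1(WT), and 465 to 533 under vehicle and 485 to 631 under the drug with U2AF1(S34F). No marker was at 0 in all mice, and the part of these cells in the Gata2 differences was not tested.

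Myb, a transcription factor of proliferating progenitors (ENSMUSG00000019982, chr10:20844736-20880790, minus strand), was the most abundant member per exon length, at 40.3 RPKM. Vehicle-treated U2AF1(S34F) mice 1, 3, 5, 7 and 11 had 187, 179, 156, 181 and 188 CPM of Myb, and vehicle-treated U2AF1(WT) mice 1 to 5 had 165, 146, 153, 140 and 152. Only U2AF1(S34F) mouse 5 lay inside the U2AF1(WT) range, and the log2 difference was 0.23 (standard error 0.076, FDR=0.0373, edgeR). Sudemycin-treated U2AF1(S34F) mice 2, 6, 9, 10 and 12 had 152, 115, 162, 163 and 143 CPM of Myb. Their log2 fold change from vehicle was -0.28 (standard error 0.09, FDR=0.0852, edgeR), a call lost without vehicle mouse 1, 3, 7 or 11 or sudemycin mouse 2, 6 or 12 (FDR 0.117 to 0.166). Sudemycin-treated U2AF1(WT) mice 6, 8, 9, 10 and 12 had 141, 123, 123, 153 and 121 CPM, a log2 difference of -0.21 (standard error 0.092) that was not called (FDR=0.332, edgeR). Myb overlaps the lincRNA Gm16786 on the other strand, which held 5274 counts beside 159599 for Myb, and whether the counting used strand is not given in the sources used here.

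The other members were called in fewer comparisons. Hoxa9, a homeobox factor of progenitors (ENSMUSG00000038227, chr6:52173099-52181088, minus strand, 0.873 RPKM), ranged under vehicle from 2.75 to 4.31 CPM with U2AF1(S34F) and from 1.89 to 3.46 with U2AF1(WT), which overlapped. The log2 difference of 0.43 (standard error 0.19, FDR=0.0968, edgeR) was just past the threshold, and the call was lost without any one of U2AF1(S34F) mice 1, 3, 5 and 7 or U2AF1(WT) mice 1, 3, 4 and 5 (FDR 0.11 to 0.194). Hoxa9 was not called under the drug with either transgene. Its log2 differences were 0.003 with U2AF1(WT) and -0.18 with U2AF1(S34F), so it was the member nearest to 0 in both.

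Hlf, a basic leucine zipper factor of stem cells (ENSMUSG00000003949, chr11:90197849-90252231, minus strand, 0.838 RPKM), lay between 4.01 and 6.86 CPM in all 20 mice and was called in no comparison. Under the drug its log2 difference was -0.15 (standard error 0.16) with U2AF1(WT) and -0.30 (standard error 0.13, FDR=0.179, edgeR) with U2AF1(S34F). Cdk6, the cell cycle kinase that pairs with D-type cyclins (ENSMUSG00000040274, chr5:3343893-3523218, plus strand, 19.9 RPKM), was also called in no comparison, although between sudemycin-treated U2AF1(S34F) and vehicle-treated U2AF1(WT) mice it was called without U2AF1(S34F) mouse 10 (-0.34, FDR=0.04, edgeR) or U2AF1(WT) mouse 2 (-0.30, FDR=0.085, edgeR). Cdk6 ranged from 71.6 to 89.5 CPM in vehicle-treated U2AF1(WT) mice and from 45.7 to 81.3 CPM in sudemycin-treated ones, a log2 difference of -0.33 (standard error 0.13, FDR=0.286, edgeR). For each of the 10 genes, with the 4 groups ordered by mean CPM, every group overlapped the next one in that order.

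**Figure D2:**
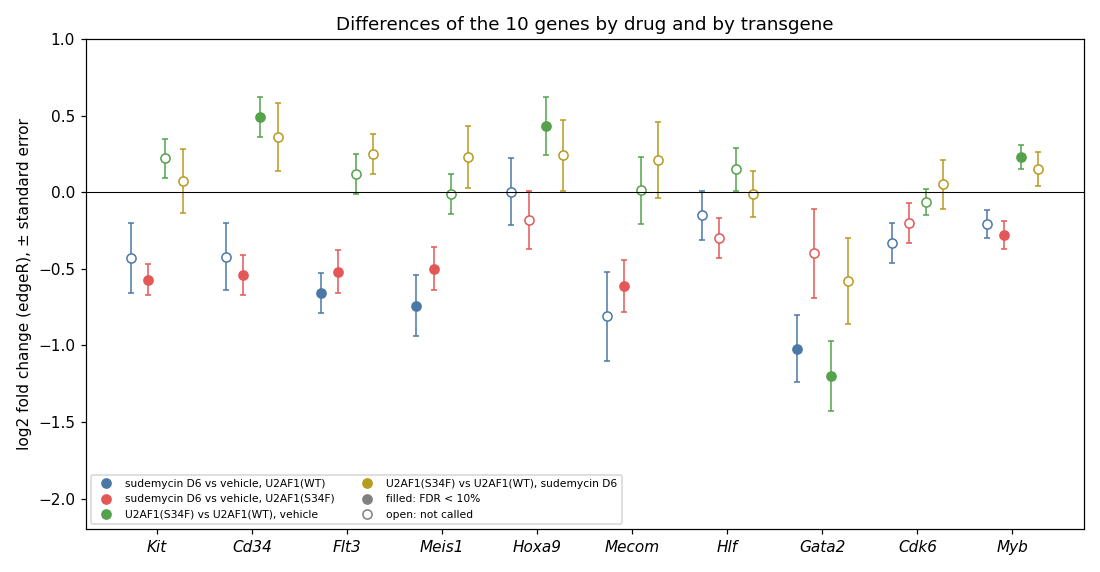
log2 fold changes of the 10 genes (edgeR, error bars are 1 standard error, 10 mice in each comparison), with filled points for FDR<10% and open points for genes not called. The drug differences lie below 0 for all genes except Hoxa9 in U2AF1(WT) mice, and Gata2 has the lowest point, at -1.20 between transgenes under vehicle.

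Correlations between members among mice of a group are given as a description. With group means removed, 38 of the 45 pairs of members had a positive Pearson correlation of log2 CPM over the 20 mice, with a median of 0.42 and a range from -0.41 (Hoxa9 with Gata2) to 0.78. The values of a mouse come from 1 library and are not independent. No share for pairs of other genes is given beside this count, so it cannot be read as a property of the members. Mouse 10 was highest of its group for 8 of the 10 genes in sudemycin-treated U2AF1(WT) mice, and the mouse numbered 10 was highest for 8 of the 10 in sudemycin-treated U2AF1(S34F) mice. Mouse 9 of the sudemycin-treated U2AF1(WT) group was below its group mean for 9 of 10 genes.

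**Figure D3:**
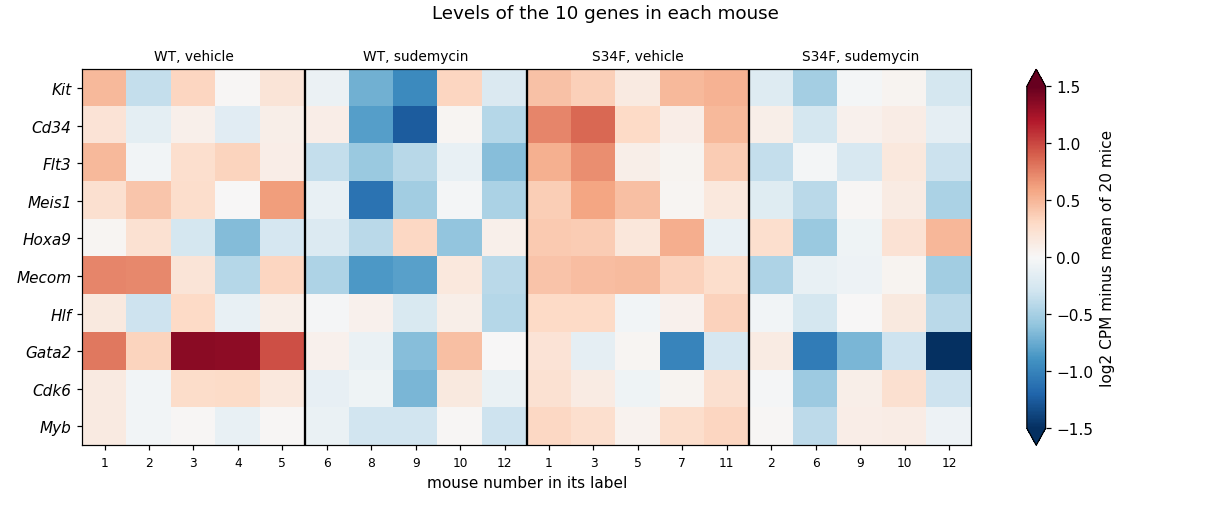
Level of each gene in each mouse as log2 CPM minus the mean of the 20 mice (red higher, blue lower, colours end at 1.5 in both directions), with mice in columns under their label numbers and the 4 groups set apart by lines. Most sudemycin-treated mice are mostly blue, but mouse 10 is above the mean for 7 genes with U2AF1(WT) and for 9 with U2AF1(S34F), U2AF1(S34F) mouse 9 for 5 and mouse 2 for 4, and Gata2 is red in all 5 vehicle-treated U2AF1(WT) mice.

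Genes whose pattern over the 20 mice was most like a member were found by Pearson correlation of log2 CPM among 15354 genes, as a description. Flt3 was followed most closely by Dntt (r = 0.926), the polymerase that adds bases at antigen receptor joints, and by Sox4 (r = 0.90). Gata2 was followed by Cdh1 (r = 0.947) and Ptprs (r = 0.918). Cd34 was followed by Galnt6 (r = 0.948) and Ivns1abp (r = 0.931), and Meis1 by Stxbp4 (r = 0.921) and Armcx1 (r = 0.896). Armcx1 was also nearest to Mecom (r = 0.89), ahead of Arhgap32 (r = 0.865). Kit was nearest to Trpc6 (r = 0.86) and Esr1 (r = 0.854), Myb to Zfp704 (r = 0.875) and Eltd1 (r = 0.874), and Cdk6 to Klhl3 (r = 0.881) and Afap1 (r = 0.841). The weakest matches were those of Hoxa9, with Mynn (r = 0.792) and Ctcf (r = 0.781), and of Hlf, with Twsg1 (r = 0.79) and Ncrna00086 (r = 0.786).

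Other genes of stem and progenitor cells were read beside the members. Of 32 listed, 30 were tested under the drug. In U2AF1(S34F) mice 9 of the 30 fell and none rose, where 5.85% of all genes tested fell, and the median log2 difference was -0.27. The summed level of the list, to which its most abundant genes add most, was 902 to 1040 CPM (median 945) under vehicle and 890 to 1000 CPM (median 942) under the drug, so the sum did not fall with the count. With U2AF1(WT) the sum was 866 to 929 CPM (median 911) and 873 to 991 CPM (median 918). The largest falls called were those of Nkx2-3 (-1.43, FDR=0.0559), Mycn (-1.36, FDR=0.0627) and Angpt1, a ligand of the TIE2 receptor (-1.07, standard error 0.21, FDR=0.0157, edgeR for all). In U2AF1(WT) mice 1 of the 30 fell, Sox4 (-0.93, standard error 0.15, FDR=0.00803, edgeR), and 1 rose, Prom1, which encodes the surface protein CD133 (0.42, FDR=0.0575, edgeR), with a median of -0.24. Of all genes tested in U2AF1(WT) mice, 1.89% fell and 1.18% rose.

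Partners and pathway genes of the members were called under the drug about as often as genes in general. Of all genes tested, 10.8% were called with U2AF1(S34F) (4.94% higher and 5.85% lower) and 3.07% with U2AF1(WT). Of 24 ligands and signalling genes of KIT and FLT3, 0 were called in U2AF1(WT) mice and 2 rose in U2AF1(S34F) mice, the adaptor Gab2 (0.31, FDR=0.0812, edgeR) and the kinase subunit Pik3cd (0.22, FDR=0.0734, edgeR). Of 16 partners, inhibitors and targets of CDK6, 0 were called in U2AF1(WT) mice and 2 rose in U2AF1(S34F) mice, with the cell cycle inhibitor Cdkn1a at 0.79 (standard error 0.17, FDR=0.0204, edgeR) and E2f4 at 0.28 (FDR=0.024, edgeR). Of 22 HOX genes and their partners, 0 of 17 tested were called in U2AF1(WT) mice and 2 of 16 fell in U2AF1(S34F) mice, Pknox1 (-0.40, FDR=0.00588, edgeR) and Pbx2 (-0.26, FDR=0.0438, edgeR). Between transgenes under vehicle, 11 of the 24 KIT and FLT3 genes were lower and 1 was higher, where 19.8% of all genes tested were lower and 19.7% were higher, with Gab2 at -0.85 (FDR=1.6e-05, edgeR) and the ubiquitin ligase Cblb at -0.60 (FDR=0.000313, edgeR). In the same comparison Kmt2a, the methyltransferase that keeps HOX genes active, was at -0.61 (FDR=0.00127, edgeR), while Hoxa9 was higher.

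Markers of maturing cells that moved with the members under the drug are given as measured. Of 8 pro-B and pre-B markers, 3 fell in U2AF1(WT) mice (Igll1, Vpreb1 and Dntt) and 3 in U2AF1(S34F) mice (Rag1, Igll1 and Dntt), with median log2 differences of -1.62 and -1.32. Their summed level was 23.7 to 51.2 CPM in vehicle-treated and 7.68 to 47.1 in sudemycin-treated U2AF1(WT) mice, and 9.42 to 73.8 and 10.1 to 19.6 CPM in the U2AF1(S34F) mice. Of 8 erythroid markers, 0 were called in U2AF1(WT) mice and 3 fell in U2AF1(S34F) mice (Epor, Hemgn and Gata1), with summed levels of 97.8 to 221 CPM under vehicle and 66.5 to 127 under the drug. Of 8 megakaryocyte markers, 0 were called in U2AF1(WT) mice and 3 fell in U2AF1(S34F) mice (Pf4, Itga2b and Vwf), with summed levels of 158 to 208 and 118 to 208 CPM.

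Of 8 T cell markers, 0 were called in U2AF1(WT) mice and 3 fell in U2AF1(S34F) mice (Cd3g, Cd3d and Lck), with summed levels of 18.8 to 33.6 CPM under vehicle and 13.8 to 15.9 under the drug. Of 8 dendritic cell markers, a list that includes Flt3 itself, Flt3 was the only one called with U2AF1(WT). With U2AF1(S34F), Siglech and Flt3 fell and Clec9a rose, of 7 tested. Of 8 endothelial markers 1 fell in U2AF1(S34F) mice, Pecam1, and 0 were called in U2AF1(WT) mice. None of the 8 granulocyte-monocyte progenitor markers, 8 neutrophil markers or 8 stromal markers was called by edgeR under the drug in either transgene. Of 12 cell cycle genes, 3 rose in U2AF1(S34F) mice (Plk1, Ccnb1 and Ccna2) and 0 were called in U2AF1(WT) mice. Beside these counts, 4.94% of all genes tested rose and 5.85% fell with U2AF1(S34F), and 1.18% rose and 1.89% fell with U2AF1(WT). No marker on any list was at 0 in all mice, and the part of these cells in the members' differences was not tested.

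**Figure D4:**
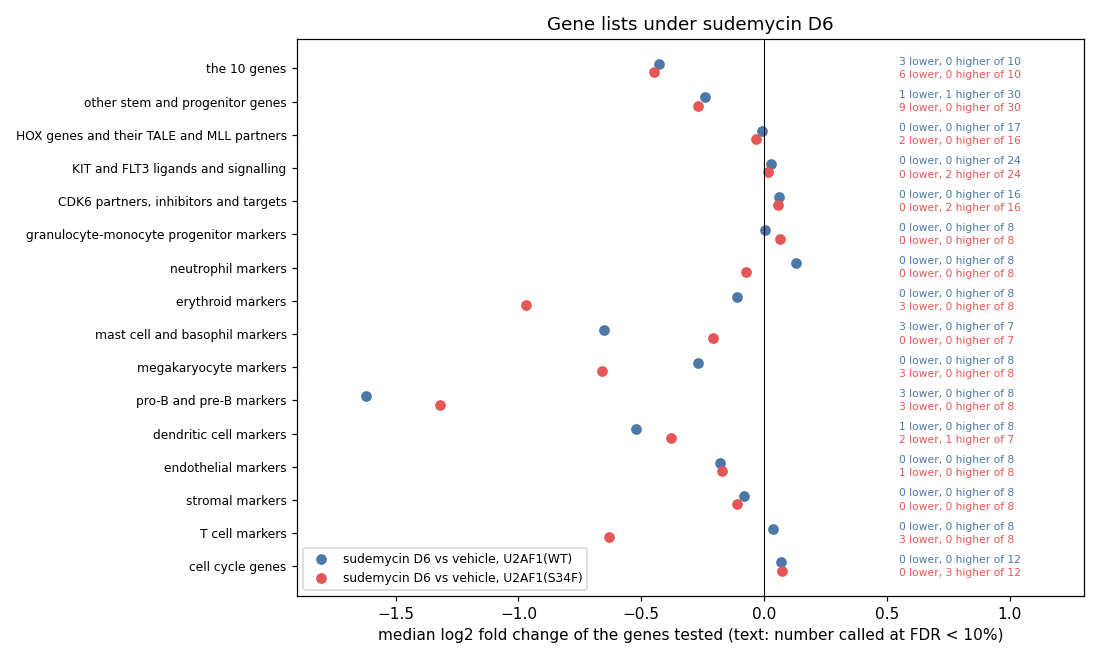
Median log2 fold change under sudemycin D6 of the genes tested in each list (1 point for each transgene), with the number called at FDR<10% in each direction printed at the right. The 10 genes lie at -0.43 and -0.45, the pro-B and pre-B markers lower still, and the granulocyte-monocyte progenitor and neutrophil markers near 0.

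Splicing of the members was read from reads on splice junctions, as the share of 1 junction among all junctions that use the same 5′ or 3′ splice site. Of the junction choices in the table, 13 belonged to 7 members (Cd34, Myb, Meis1, Kit, Gata2, Cdk6 and Hlf), and some of them describe the same event from either end. Between 11 and 13 of them could be tested in a comparison. edgeR called 0 of them in every comparison, where 4.79% of all choices tested were called between transgenes under vehicle, 4.59% between transgenes under sudemycin D6, 1.4% under the drug in U2AF1(WT) mice, 1.92% under the drug in U2AF1(S34F) mice and 8.19% between sudemycin-treated U2AF1(S34F) and vehicle-treated U2AF1(WT) mice. The numbers of member choices with an unadjusted p below 0.05 were 3, 0, 0, 2 and 1 in that order. With limma on the share 0 were also called, but over all choices limma called fewer than edgeR, so its 0 says little. In the same order, limma called 373 of 26286, 426 of 25877, 12 of 25446, 49 of 27385 and 1091 of 26109 choices.

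The last intron of Cd34 ends at either of the 3′ splice sites given above, 156 bases apart, and the annotated coding sequence ends 12 bases into the exon that starts at the upstream site, which has T before the AG. The upstream site took 38.9%, 43.9%, 43.4%, 40.4% and 43.9% of the reads in vehicle-treated U2AF1(WT) mice 1 to 5, and in U2AF1(S34F) mice 1, 3, 5, 7 and 11 under vehicle it took 34.7%, 29.9%, 37.4%, 30.6% and 31.1%. The groups did not overlap, as for 4.46% of the 26286 choices tested that had reads in every mouse, and each mouse had between 122 and 355 reads at the site. With the reads of each group pooled, the difference was -9.66 percentage points, and the means of mice were 42.1% and 32.8%. It was not called with edgeR (FDR=0.20) or limma (FDR=0.113). Sudemycin-treated mice spread more widely, from 24% to 47.5% with U2AF1(WT) and from 25% to 44.7% with U2AF1(S34F). Sudemycin-treated U2AF1(S34F) mice were -11.5 points from vehicle-treated U2AF1(WT) mice, again with reads pooled (FDR=0.124, edgeR). That difference was called without mouse 12, which had 44.7% of 85 reads.

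Kit is made with or without the 12 bases shown, which lie in the part of the receptor outside the cell. The longer form took 32.2% of 1798 reads over all mice. With U2AF1(WT) its share was 27.8% ± 10 (SD, n = 5) under vehicle and 26.9% ± 18.4 under the drug, and with U2AF1(S34F) it was 33% ± 6.15 and 36.6% ± 12.1, and no difference was called. The alternative exon of Myb, 357 bases long, was entered by 6.24% of 13486 reads at the 5′ splice site before it. Under vehicle that share was 8.03% ± 3.17 (SD, n = 5) with U2AF1(WT) and 4.6% ± 1.5 with U2AF1(S34F) (FDR=0.317, edgeR). Seen from the 3′ splice site after the exon, the shares were 6.45% ± 3.26 and 7.85% ± 2.02, so the exon's ends differed in opposite directions and neither difference was called.

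Cdk6 and Gata2 start at more than 1 first exon. At the first 3′ splice site of Cdk6, a junction from chr5:3341574, upstream of the annotated gene, held 1316 of 1722 reads (76.4%) and had reads in all 20 mice, at 35 to 105 each. The annotated first exon held 265 reads (15.4%), with shares under vehicle and drug of 17.9% ± 11.6 (SD, n = 5) and 19.4% ± 7.24 with U2AF1(WT), and of 8.77% ± 4.59 and 16.3% ± 6.88 with U2AF1(S34F). Its difference between transgenes under vehicle was not called (FDR=0.334, edgeR). The distal first exon of Gata2, which ends 4881 bases before the proximal one does, took 39.5% of 425 reads, so at 21.2 reads per mouse only large differences could be seen. Meis1 lacked its 95-base penultimate exon in 31.9% of 295 reads, and the alternative first exon of Hlf took 6.47% of 278 reads. These Hlf reads came only from vehicle-treated U2AF1(WT) mouse 5 (14 of 26 reads) and vehicle-treated U2AF1(S34F) mouse 1 (4 of 13). The bases at the ends of that Hlf intron are recorded as NN-AG, so its 5′ splice site is not known to be GT.

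**Figure D5:**
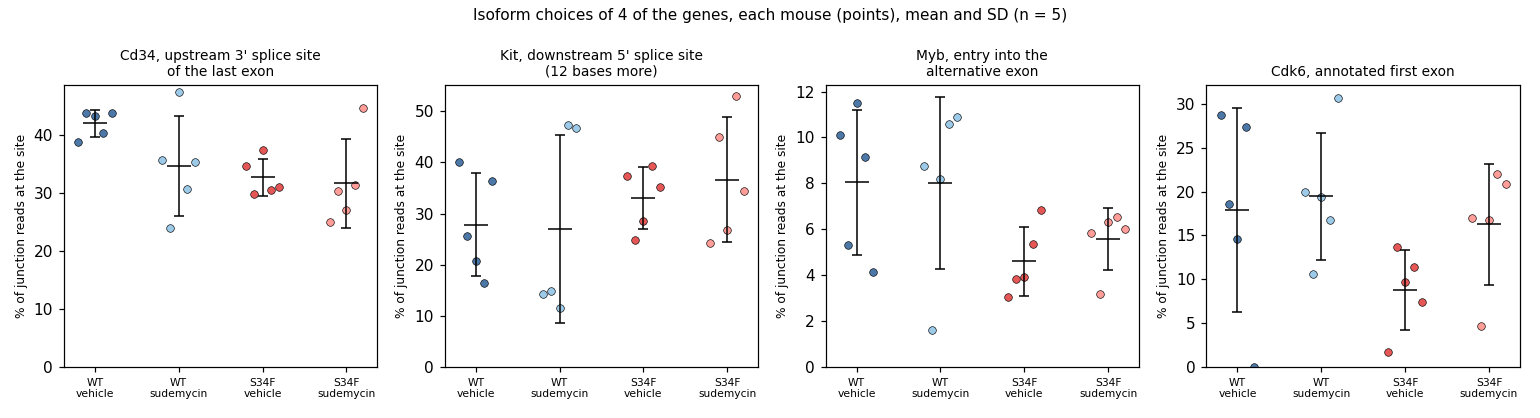
Share of junction reads in percent (linear axes that start at 0) for 4 isoform choices, with 1 point for each mouse, a horizontal bar for the group mean and error bars of 1 SD (n = 5). For Cd34 the vehicle-treated groups sit apart, 38.9% to 43.9% with U2AF1(WT) and 29.9% to 37.4% with U2AF1(S34F), a difference that was not called, while the sudemycin-treated groups overlap both.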

How the data were processed

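Bone marrow RNA of 20 mice, depleted of ribosomal RNA, was sequenced as stranded paired-end libraries (2 x 126 bp). The authors aligned reads to mm9 with TopHat2 2.0.8 and deposited counts, whole numbers without normalization, for 37620 genes and for 554616 splice junctions. The program that counted genes is not given in the sources used here. A deposited column with the number of exons skipped by each junction was used only to read the table. Symbols were matched through GENCODE annotation of the same build for 37205 genes, and exon lengths for RPKM came from it. The 10 genes and the other lists were chosen with earlier results of these data known.

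For genes, edgeR 4.0.16 (R 4.3.3) was run with filterByExpr, TMM and a robust quasi-likelihood fit on the 10 mice of each comparison, with Benjamini-Hochberg adjustment over all genes tested, and the standard error was the size of the log2 fold change over the square root of F. A junction choice was tested when its site averaged 10 or more reads per mouse and its minor side held at least 5% of them, as junction against other reads, with 1 coefficient for each mouse and a dispersion of 0. That dispersion was chosen in an earlier analysis of these data, with its results known. The newer form of the edgeR fit was taken for junctions after both forms had been run, because it made fewer false calls when both were tested on a simulated data set. The likeness of genes used log2 of CPM plus 0.5. Gene counts of a mouse summed to between 41145892 and 62138138 and junction counts to between 34384214 and 64813149. Named genes were all members, the 2 genes most like each of them, and up to 3 called genes of each list and comparison with the largest change. Dixon's rule was used for single far mice. Alternatives were DESeq2 1.42.0, limma 3.58.1, other normalization, filters and thresholds, one model of all mice, a block for the replicate number, and each mouse left out in turn. No pair of libraries of a group was a duplicate. Python 3.11.15, pandas 2.3.3, samtools 1.23.1 and matplotlib 3.10.9 served for tables, sequences and plots.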

Additional observations from a re-analysis of the deposited data

Results flagged for a closer look

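In 69 groups of 5 mice (the level of a member, or a junction share with at least 20 reads in each mouse), 3 had 1 mouse set apart from the others by Dixon's rule, where chance sets apart about 1 in 20. Myb was 156 CPM in vehicle-treated U2AF1(S34F) mouse 5, below 179 to 188 CPM in the other mice of its group. The share of reads entering the alternative exon of Myb was 3.20% in sudemycin-treated U2AF1(S34F) mouse 6 and 5.82% to 6.53% in the others. A junction of Meis1 that skips 1 exon took 15.4% of 26 reads in vehicle-treated U2AF1(S34F) mouse 7 and 0% to 4.35% in the others.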

How the results depend on the processing

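Of 1010 values of single members under an alternative, 904 kept their direction and their side of the threshold, 61 lost the call, 10 gained one and 35 changed direction, none of the 35 called in either setting. With an FDR below 5%, the members called under the drug in U2AF1(S34F) mice went from 6 to 3, and those in sudemycin-treated U2AF1(S34F) against vehicle-treated U2AF1(WT) mice from 5 to 3. In one model of all mice, the 6 became 1; the cause was not tested. With each mouse left out in turn, the count of members called ranged from 3 to 4 between transgenes under vehicle, 0 to 1 between transgenes under sudemycin D6, 2 to 3 under the drug in U2AF1(WT) mice, 2 to 6 under the drug in U2AF1(S34F) mice, 3 to 6 in sudemycin-treated U2AF1(S34F) against vehicle-treated U2AF1(WT) mice, and 0 to 0 for the interaction. The count of member junction choices called ranged from 0 to 1 in sudemycin-treated U2AF1(S34F) against vehicle-treated U2AF1(WT) mice and was 0 in the other comparisons, also with the older form of the edgeR fit, which was added after seeing the data. For all genes, DESeq2 called 819 under the drug in U2AF1(WT) mice where edgeR called 453, one model of all mice called 1072 there and 788 in U2AF1(S34F) mice in place of 1588, and the interaction gave 116 with DESeq2, 10 without a filter and 2 with edgeR.

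On the log2 scale, the Meis1 difference between transgenes under vehicle (-0.0094) became 0.0074 without a filter on low counts and 0.0043 in one model of all mice, and the Hlf difference between transgenes under sudemycin D6 became 0.009 without the filter. With each mouse left out in turn, log2 differences crossed 0 for Meis1 (-0.069 to 0.075) and Mecom (-0.12 to 0.12) between transgenes under vehicle, for Kit (-0.044 to 0.27), Hlf (-0.089 to 0.06) and Cdk6 (-0.046 to 0.16) between transgenes under sudemycin D6, and for Hoxa9 (-0.13 to 0.12) under the drug in U2AF1(WT) mice. They also crossed 0 for Cd34 (-0.086 to 0.014) and Myb (-0.079 to 0.033) in sudemycin-treated U2AF1(S34F) against vehicle-treated U2AF1(WT) mice, and for Kit (-0.26 to 0.039), Cd34 (-0.26 to 0.016) and Myb (-0.13 to 0.016) in the interaction.

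The replicate numbers of the labels were used as a block where groups share them. The vehicle-treated groups share numbers 1, 3 and 5, and the sudemycin-treated groups share 6, 9, 10 and 12. With the block, the difference between transgenes rests on those mice alone. With the replicate block, the members called were 2 in place of 4 between transgenes under vehicle, and 1 (Gata2) in place of 0 under sudemycin D6. The block also turned the log2 difference between transgenes to -0.041 for Kit, 0.068 for Meis1 and -0.015 for Hlf under vehicle, and to 0.0091 for Hlf under sudemycin D6, none of them called. Same-numbered mice deviated together with correlations of 0.11, 0.16 and -0.09 under vehicle and 0.32, -0.16, 0 and 0.22 under sudemycin D6. Number 3 under vehicle and number 10 under sudemycin D6 correlated best with their own number, and the others did not. The labels do not say what the numbers stand for, and these correlations cannot decide whether they pair the mice. The groups of the drug comparisons share no numbers, so no block could be used there. With 5 mice in a group and Mecom near 1 CPM, small differences of the rarer members were not detectable at this depth.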
